A study of Homo sapiens with 6 samples.

Results

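Messenger RNA of 10 genes of the extrinsic death pathway was compared between IGROV1-Res and IGROV1-Sen cells. The genes were the death receptors *TNFRSF10A*, *TNFRSF10B*, *FAS* and *TNFRSF1A*, the decoy receptor *TNFRSF10D*, the signalling genes *FADD*, *CASP8* and *CFLAR*, and the inhibitor of apoptosis (IAP) genes *BIRC2* and *BIRC3*. They were chosen by symbol, with the fold changes of this same comparison already known, so that their differences between the groups are given as a description, without a test. Of the 10, 9 were found among the 14646 genes counted, and all 9 were among the 13791 genes tested. *TNFRSF10A*, which encodes TRAIL receptor DR4, was not counted and is not analysed here.

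IGROV1 is a *PIK3CA*-mutated ovarian cancer cell line, and both groups share that origin. IGROV1-Res cells were made from it by months of culture in rising concentrations of GDC0032 (taselisib), an inhibitor of the PI3K p110 isoforms that spares the beta isoform, until they resisted the drug. IGROV1-Sen cells are the parental, GDC0032-sensitive cells. Both groups had 3 libraries, whose labels carry the letters UT without spelling them out, and no difference in genotype other than the selection is given. IGROV1-Res is 1 line from 1 selection, and the labels do not say whether its libraries were separate cultures, so the p-values given for other genes measure only the spread between these libraries.

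Death receptors are cell surface proteins of the TNF receptor superfamily that carry a death domain inside the cell. When TRAIL or Fas ligand binds, the receptor gathers the adaptor FADD and the initiator caspase-8, which can start the caspase cascade, while the caspase-8-like protein cFLIP competes for the same place. Decoy receptors bind TRAIL but lack a working death domain, and the cellular IAP proteins place ubiquitin chains on the TNF receptor complex, which favours NF-kB signalling over cell death. TRAIL receptors have been studied as a route to kill ovarian cancer cells.

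The libraries held 12808922 to 15241394 counts, which puts 3 counts, taken as the floor of a library, at 0.197 to 0.234 CPM (read counts scaled to a common library total, for all other values after TMM adjustment of the totals). Mitochondrially encoded genes took 6.94% to 12.8% of the counts, and the lowest shares were in IGROV1-Res replicate 3 and IGROV1-Sen replicate 1. Replicates 2 and 3 of IGROV1-Sen were close to each other, with 1.47 as chi-square over its degrees of freedom across genes, little over counting noise, and were kept as separate libraries, while every other pair within a group was at 11.9 to 32.7, IGROV1-Res replicates 1 and 3 lying on either side of replicate 2. The epithelial and Müllerian marker *PAX8* averaged 819 ± 125 CPM in IGROV1-Res and 832 ± 84.4 CPM in IGROV1-Sen (SD, n = 3 each). *EPCAM* and *CDH1*, which define most epithelia, were at only 1.93 and 1.12 CPM in IGROV1-Res and at 0.729 and 0.611 CPM in IGROV1-Sen. Summed over the lists, all 7 epithelial markers gave 2005 to 2406 CPM in IGROV1-Res and 1370 to 1516 CPM in IGROV1-Sen, 2 of 4 endothelial markers gave 175 to 178 CPM in IGROV1-Res and 114 to 142 CPM in IGROV1-Sen, and 4 of 5 fibroblast markers gave 32.0 to 50.01 CPM in IGROV1-Res and 25.6 to 28.7 CPM in IGROV1-Sen. The keratin genes *KRT18* and *KRT8* made up most of the epithelial difference. *KRT18* was at 1063 CPM in IGROV1-Res and 295 CPM in IGROV1-Sen (log2 fold change of IGROV1-Res over IGROV1-Sen, log2FC, 1.85). *KRT8* was at 53.8 CPM in IGROV1-Res and 7.94 CPM in IGROV1-Sen (log2FC 2.75). Of the fibroblast markers, *LUM* had the largest log2FC, 5.65, on 26, 28 and 15 counts in IGROV1-Res, against 1, 0 and 0 in IGROV1-Sen. The log2FC was 1.68 for *PDGFRB*, -0.08 for *PDGFRA* and -0.84 for *COL1A1*. None of 5 haematopoietic markers, *PTPRC* included, was counted. The part of these lists and of the mitochondrial share in the results below was not tested.

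Among the 9 genes, 2 passed an adjusted p of 0.05 in edgeR's quasi-likelihood test as higher in IGROV1-Res (*TNFRSF10B* and *FAS*), where 17.4% of all tested genes did so. Another 2, *TNFRSF10D* and *BIRC3*, passed it as lower in IGROV1-Res, where 18.3% of all tested genes did so. The 3 libraries of one group lay wholly above or below those of the other for 6 of the 9, against 47.8% of all tested genes. Since the genes were chosen with this comparison in view, nothing is read from these counts. The log2FC had a median of 0.12 over the 9 genes and -0.01 over all tested genes.

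**Figure D1:**
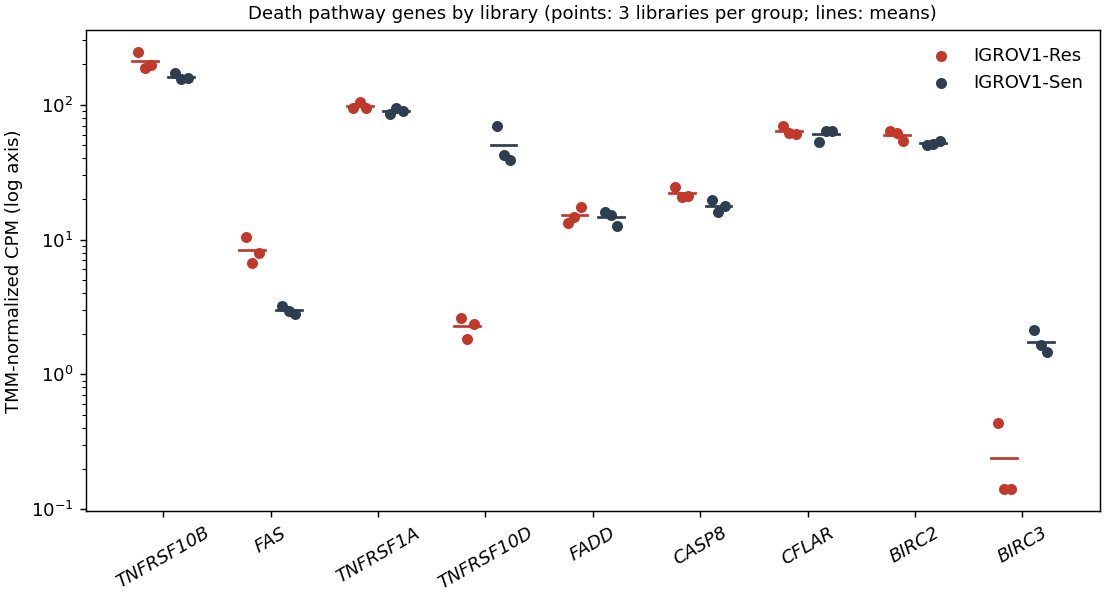
TMM-normalized CPM of the 9 counted genes on a log axis, with 1 point per library, IGROV1-Res in red to the left of IGROV1-Sen in dark blue, and lines at the group means. *TNFRSF10D* lay at 1.82 to 2.63 CPM in IGROV1-Res and at 39.1 to 69.6 CPM in IGROV1-Sen, while *TNFRSF1A*, *FADD* and *CFLAR* overlapped between the groups.

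The decoy receptor *TNFRSF10D* (ENSG00000173530) encodes DcR2, which binds TRAIL but has a truncated death domain. Its place is the minus strand of chromosome 8 (GRCh38), 23135588 to 23164030. The gene had 36, 26 and 34 counts in the IGROV1-Res libraries, against 885, 645 and 558 counts in the IGROV1-Sen libraries. Every IGROV1-Res library was far below every IGROV1-Sen library, and IGROV1-Sen replicate 1 was the highest. The means were 2.28 ± 0.414 CPM in IGROV1-Res and 50.4 ± 16.7 CPM in IGROV1-Sen (SD, n = 3 each), a log2FC of -4.46 (standard error, SE, 0.27) and a mean CPM 22.1 times lower in IGROV1-Res. Without both libraries of lowest mitochondrial share the log2FC was -4.20. In RNA from whole cultures, fewer cells that express a gene and less RNA per cell cannot be told apart.

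*TNFRSF10B* (ENSG00000120889), which encodes the TRAIL death receptor DR5, lies on the same strand of chromosome 8 from 23020133 to 23069179. *TNFRSF10B* had 3362, 2659 and 2831 counts in IGROV1-Res, against 2175, 2332 and 2254 counts in IGROV1-Sen. All IGROV1-Res libraries were above all IGROV1-Sen libraries, with IGROV1-Res replicate 1 the highest. The means were 210 ± 31.4 CPM in IGROV1-Res and 161 ± 8.89 CPM in IGROV1-Sen (SD, n = 3 each), a log2FC of 0.38 (SE 0.11). The gene was no longer past the threshold without IGROV1-Sen replicate 2 or replicate 3, or when these close libraries were summed to 1, and its log2FC ranged from 0.26 to 0.47 over the alternatives tried.

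Between these genes, 33.4 kb from *TNFRSF10B* and 18.2 kb from *TNFRSF10D*, lies *TNFRSF10C*, which encodes the second TRAIL decoy, DcR1, a receptor anchored to the membrane by a lipid. It is not one of the 10 genes, and was named whatever its value. *TNFRSF10C* had 7, 2 and 3 counts in IGROV1-Res, against 24, 44 and 34 counts in IGROV1-Sen, and fell in IGROV1-Res with a log2FC of -3.04 (SE 0.42, adjusted p = 0.000588). Its IGROV1-Res libraries lay near the floor, 1 of them under it, and the groups did not overlap. In *TNFRSF10C*, 33.9% of the 60-base windows of its exons are shared with other annotated genes, so that its own counts are uncertain. *TNFRSF10D* shared 0.546% and *TNFRSF10B* 0.903% of such windows.

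The lower counts of both decoy genes stood within a stretch of chromosome 8 where most tested genes were not lower. Over the 457 tested genes of chromosome 8 the median log2FC was 0.39. In IGROV1-Res, 49.9% of them were called higher (against 17.4% of all tested genes) and 6.56% lower (against 18.3%). Within 1 Mb of *TNFRSF10D*, 21 tested genes had a median of 0.36, with 9 called higher and 2 lower. They leave out *TNFRSF10B* but include *TNFRSF10C*, which is among the lower. The nearest counted gene beyond it, *CHMP7*, which encodes a subunit of the membrane-remodelling ESCRT-III machinery, lay 79.6 kb away and rose (log2FC 0.51, SE 0.08, adjusted p = 0.00123). The value of *TNFRSF10B*, 0.38, was close to the median of its chromosome. The part of the shift of the whole chromosome in this value was not tested.

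**Figure D2:**
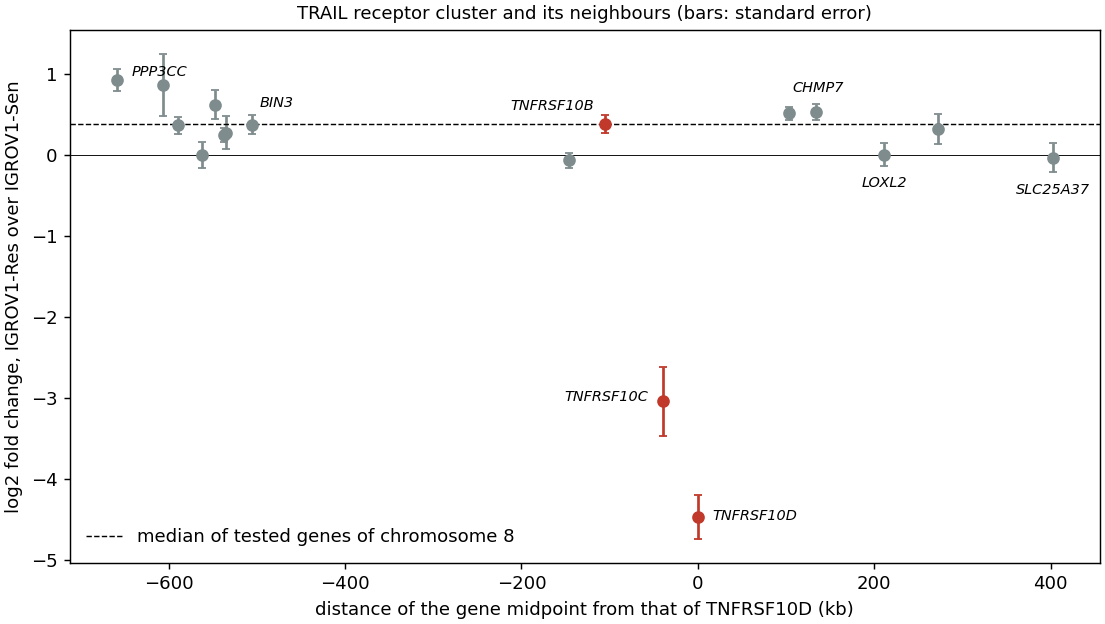
Log2 fold change of IGROV1-Res over IGROV1-Sen, with standard error bars, of the tested genes around the TRAIL receptor genes, against the distance of each gene's midpoint from that of *TNFRSF10D* in kb; TRAIL receptor genes are red, others grey, and the dashed line is the median of chromosome 8. *TNFRSF10D* at -4.46 and *TNFRSF10C* at -3.04 lay far below the dashed line at 0.39, and *TNFRSF10B* lay on it.

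As a ratio of CPM per kb of summed exons, *TNFRSF10D* over *TNFRSF10B* was 0.0156, 0.0143 and 0.0175 in the IGROV1-Res libraries and 0.593, 0.403 and 0.361 in the IGROV1-Sen libraries. The decoy gene was thus the lesser of the pair in every library of both groups. By the mean ratio over libraries, *TNFRSF10B* was 63.8 times above *TNFRSF10D* per length in IGROV1-Res and 2.31 times in IGROV1-Sen. With the length of the longest transcript in place of all exons, it was 79.3 times above in IGROV1-Res and 2.88 times in IGROV1-Sen.

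Of the death receptors outside the cluster, *FAS* (ENSG00000026103), the receptor of Fas ligand, has its place on the plus strand of chromosome 10, 88990582 to 89015785. *FAS* had 142, 95 and 113 counts in IGROV1-Res, against 41, 45 and 40 counts in IGROV1-Sen. All IGROV1-Res libraries were above all IGROV1-Sen libraries, and they varied more among themselves, by 22.8% of their mean against 7.07% in IGROV1-Sen. The means were 8.32 ± 1.89 CPM in IGROV1-Res and 3.0 ± 0.212 CPM in IGROV1-Sen (SD, n = 3 each), a log2FC of 1.47 (SE 0.21), which ranged from 1.28 to 1.61 over the alternatives. This was the largest increase among the 9 genes.

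*ACTA2*, which encodes smooth muscle actin, overlaps *FAS* on the other strand, and 6.74% of the 60-base windows of *FAS* exons are also in *ACTA2*. It had 42, 64 and 51 counts in IGROV1-Res, against 6, 11 and 11 counts in IGROV1-Sen, and rose (log2FC 2.47, adjusted p = 0.000252). Whether the counting used the strand is not given in the sources used here, so reads of the shared stretch cannot be told apart. The 8 tested genes within 1 Mb of *FAS* had a median of -0.22, and those of chromosome 10 one of -0.17.

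*TNFRSF1A* (ENSG00000067182), which encodes the main receptor of TNF, TNFR1, lies on the minus strand of chromosome 12 from 6328757 to 6342114. *TNFRSF1A* had 1285, 1489 and 1354 counts in IGROV1-Res, against 1088, 1424 and 1274 counts in IGROV1-Sen. The groups overlapped, with means of 97.7 ± 5.75 CPM in IGROV1-Res and 89.6 ± 4.28 CPM in IGROV1-Sen (SD, n = 3 each) and a log2FC of 0.12 (SE 0.08). *FAS* per *TNFRSF1A*, each per kb of exons, was 0.0809 ± 0.0221 in IGROV1-Res and 0.0316 ± 0.00336 in IGROV1-Sen, so that *TNFRSF1A* was the more abundant receptor RNA in both.

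*FADD* (ENSG00000168040), the adaptor that joins death receptors to caspase-8, lies on the plus strand of chromosome 11 from 70203163 to 70207390. The adaptor gene had 183, 210 and 247 counts in IGROV1-Res, against 204, 230 and 180 counts in IGROV1-Sen, with a log2FC of 0.05 (SE 0.15) that ranged from -0.05 to 0.13 over the alternatives. The groups overlapped, with means of 15.1 ± 2.0 CPM in IGROV1-Res and 14.6 ± 1.79 CPM in IGROV1-Sen (SD, n = 3 each), and no direction is read from them. Of its 60-base windows, 50.2% are also in the antisense gene *AP000879.1*, which is not in the count table used.

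*CASP8* (ENSG00000064012), the initiator caspase of death receptors, and *CFLAR* (ENSG00000003402), which encodes cFLIP, lie near each other on the plus strand of chromosome 2, from 201233443 to 201287711 and from 201116104 to 201176687. *CASP8* had 338, 297 and 302 counts in IGROV1-Res, against 249, 244 and 253 counts in IGROV1-Sen, and *CFLAR* had 949, 887 and 871 counts in IGROV1-Res, against 675, 972 and 904 counts in IGROV1-Sen. *CASP8* did not overlap between the groups, with means of 22.2 ± 2.15 CPM in IGROV1-Res and 17.8 ± 1.73 CPM in IGROV1-Sen (SD, n = 3 each) and a log2FC of 0.32 (SE 0.12). *CFLAR* overlapped, with means of 64.2 ± 4.52 CPM in IGROV1-Res and 60.2 ± 6.19 CPM in IGROV1-Sen (SD, n = 3 each) and a log2FC of 0.09 (SE 0.10), and its lowest library was IGROV1-Sen replicate 1. The gene between them, *CASP10*, a second initiator caspase of the same complex, had a log2FC of 0.64 on only 6 to 22 counts per library (SE 0.38, adjusted p = 0.219).

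The balance of *CFLAR* to *CASP8* per kb of summed exons was 0.930 ± 0.0289 in IGROV1-Res and 1.10 ± 0.209 in IGROV1-Sen (SD, n = 3 each), and its IGROV1-Sen libraries, at 0.871, 1.28 and 1.15, lay on both sides of all IGROV1-Res libraries. It depended on the length used, since with the longest transcripts the ratio was 0.578 in IGROV1-Res and 0.684 in IGROV1-Sen, which puts *CASP8* above *CFLAR* in both. Of the 60-base windows of *CFLAR* exons, 12.3% are shared with other genes. *FADD* over *CASP8* was 2.71 ± 0.547 in IGROV1-Res and 3.24 ± 0.455 in IGROV1-Sen by summed exons. It also depended on the length used. By the longest transcripts it was 1.10 in IGROV1-Res, with replicate 1 at 0.862, and 1.31 in IGROV1-Sen.

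The IAP genes *BIRC3* and *BIRC2*, which encode cIAP2 and cIAP1, lie side by side on the plus strand of chromosome 11, 7.81 kb apart. Their log2FC values had opposite signs, and only *BIRC3* passed the threshold. *BIRC3* (ENSG00000023445, from 102317450 to 102339403) had 6, 2 and 2 counts in IGROV1-Res, against 27, 25 and 21 counts in IGROV1-Sen. All IGROV1-Res libraries were below all IGROV1-Sen libraries, and IGROV1-Res replicates 2 and 3 were under the floor of 3 counts. The means were 0.240 ± 0.172 CPM in IGROV1-Res and 1.75 ± 0.337 CPM in IGROV1-Sen (SD, n = 3 each), a log2FC of -2.83 (SE 0.44) that was -3.55 without IGROV1-Res replicate 1. With so few counts in either group, the size of this difference is poorly fixed, and *BIRC3* was left out of the fit when at least 10 counts were asked of every library.

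*BIRC2* (ENSG00000110330, from 102347211 to 102378670) had 873, 878 and 771 counts in IGROV1-Res, against 638, 777 and 762 counts in IGROV1-Sen. As CPM, all IGROV1-Res libraries lay above all IGROV1-Sen libraries by a small margin, 54.0 CPM in the lowest of IGROV1-Res and 53.4 CPM in the highest of IGROV1-Sen. The means were 59.8 ± 5.11 CPM in IGROV1-Res and 51.6 ± 1.63 CPM in IGROV1-Sen (SD, n = 3 each), a log2FC of 0.21 (SE 0.09). Only 1 of the 60-base windows of these genes is shared between them. By the mean ratio over libraries, *BIRC2* was 536 times above *BIRC3* per length in IGROV1-Res, a value that rests on the 2 to 6 counts of *BIRC3*, and 50.3 times in IGROV1-Sen. The neighbours on either side of the pair, *YAP1*, a transcriptional co-activator of the Hippo pathway, and *TMEM123*, a cell surface mucin-like gene, had log2FC values of 0.05 (adjusted p = 0.693) and 0.12 (adjusted p = 0.314).

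Of these neighbouring IAP genes, *BIRC3* was called lower on few counts and *BIRC2* was not called, so opposite changes are not established. The sequences around their start sites are shown as a description, from 250 bases before to 50 bases after each start site. They are as RefSeq gives them on GRCh38.p14, both on the plus strand. Capitals mark matches to the kappaB consensus, the binding sequence of NF-kB, in *BIRC3* (chr11:102317234-102317533), and a match to the cAMP response element TGACGTCA in *BIRC2* (chr11:102346964-102347263); both motifs were searched on both strands.
BIRC3: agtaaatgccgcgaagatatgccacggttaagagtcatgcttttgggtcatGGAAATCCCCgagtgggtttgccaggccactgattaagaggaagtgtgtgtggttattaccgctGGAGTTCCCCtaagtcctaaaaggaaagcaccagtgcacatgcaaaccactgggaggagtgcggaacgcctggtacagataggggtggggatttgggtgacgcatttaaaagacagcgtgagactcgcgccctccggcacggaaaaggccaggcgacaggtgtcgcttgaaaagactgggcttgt
BIRC2: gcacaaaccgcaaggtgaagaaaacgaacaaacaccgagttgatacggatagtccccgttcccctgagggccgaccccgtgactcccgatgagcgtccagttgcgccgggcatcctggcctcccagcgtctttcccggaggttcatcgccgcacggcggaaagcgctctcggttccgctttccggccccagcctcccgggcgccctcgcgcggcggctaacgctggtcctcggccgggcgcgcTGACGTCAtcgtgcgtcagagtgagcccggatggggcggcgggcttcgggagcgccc
The *BIRC3* window held 2 kappaB matches, starting 199 and 135 bases before the start site, where 11.3% of 35116 promoter windows held at least 1 and 2.04% held at least 2. The *BIRC2* window held no kappaB match and 1 cAMP response element, starting 7 bases before the start site, an element found in 1.85% of the windows. Of the other genes here with a window in this table, *CFLAR* and *FAS* each had 1 window with a kappaB match, and *CASP8*, *FADD* and *TNFRSF1A* had none. A match describes the letters of the window and is neither a bound site nor a cause of the counts.

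Per kb of summed exons, the order of levels in IGROV1-Res was *TNFRSF10B* at 40.7 CPM per kb, *TNFRSF1A* at 24.4, *BIRC2* at 13.2, *FADD* at 8.22, *CASP8* at 3.07, *CFLAR* at 2.85, *FAS* at 1.96, *TNFRSF10D* at 0.644 and *BIRC3* at 0.0319 CPM per kb. In IGROV1-Sen it was *TNFRSF10B* at 31.2 CPM per kb, *TNFRSF1A* at 22.4, *TNFRSF10D* at 14.3, *BIRC2* at 11.4, *FADD* at 7.94, *CFLAR* at 2.67, *CASP8* at 2.46, *FAS* at 0.705 and *BIRC3* at 0.233 CPM per kb. The decoy gene thus stood in eighth place of 9 in IGROV1-Res and in the third in IGROV1-Sen. Among neighbours in the order, *CASP8* and *CFLAR* overlapped in both groups, and *TNFRSF10D* and *BIRC2* overlapped in IGROV1-Sen. On this scale *TNFRSF10D* was above 15.2% of the tested genes in IGROV1-Res and above 76.2% in IGROV1-Sen, and *BIRC3* was above 0.5% in IGROV1-Res and 4.7% in IGROV1-Sen.

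**Figure D3:**
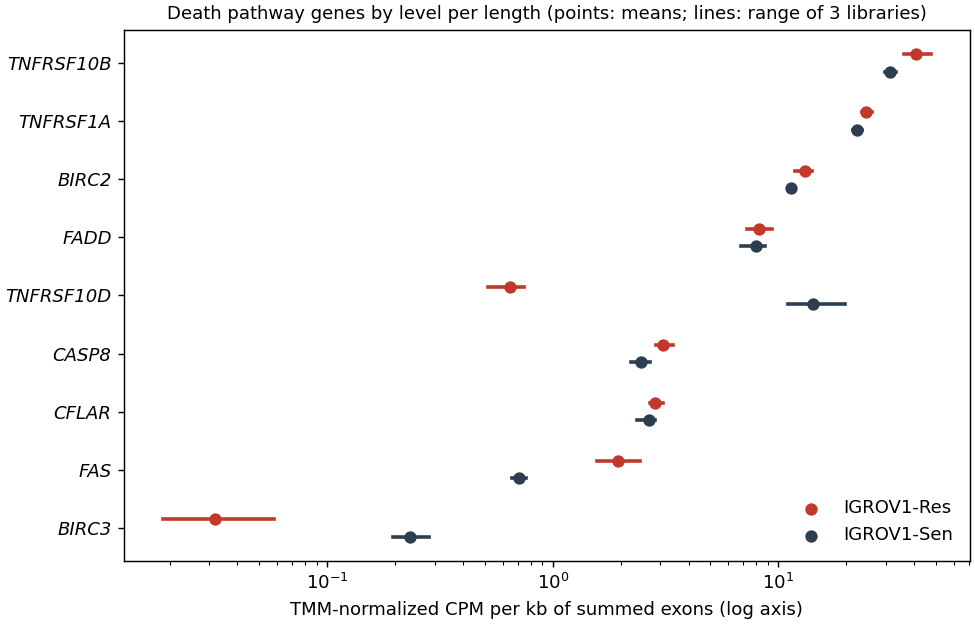
Level of the 9 counted genes in TMM-normalized CPM per kb of summed exons on a log axis, with points at group means and lines over the range of 3 libraries, IGROV1-Res in red above IGROV1-Sen in dark blue. *TNFRSF10D* stood at 0.644 CPM per kb in IGROV1-Res and at 14.3 in IGROV1-Sen, and *TNFRSF10B* was the highest in both groups.

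The genes whose pattern over the 6 libraries was most like that of *TNFRSF10D* were found by the root mean square difference of log2 CPM, centred on each gene's mean, among 10479 genes. They were *TFPI*, the inhibitor of the tissue factor pathway of coagulation, at a difference of 0.23, then *GSTO2*, a glutathione transferase, *KCNG1*, a potassium channel subunit, and *BDNF*, a neurotrophin, at 0.39 to 0.40. *TFPI* had 7, 6 and 6 counts in IGROV1-Res, against 155, 153 and 157 counts in IGROV1-Sen. For *FAS* they were *CCDC141* at 0.09, *SPAG1* at 0.12, *ZFP36*, which encodes an mRNA-destabilizing protein, at 0.14, and *JAK2*, a cytokine receptor kinase, at 0.16. As with *FAS*, replicate 1 was the highest of the IGROV1-Res libraries in all 4. The choice by likeness over these same libraries favours this, so nothing is read from it.

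Beyond these genes, 116 genes in 7 lists of the same pathway were followed, of which 85 were tested. In all, 24 were called higher in IGROV1-Res (28.2%, against 17.4% of all tested genes) and 11 lower (12.9%, against 18.3%). Their median log2FC was 0.17. All 7 lists were written with earlier results of these data known, so nothing is read from these counts.

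Among other receptors of the TNF superfamily, 14 of 24 listed were tested, with a median of 0.59. Of the 14, 6 rose in IGROV1-Res (42.9%, against 17.4% of all tested genes) and 2 fell (14.3%, against 18.3%). *TNFRSF11B*, which encodes osteoprotegerin, a secreted decoy that binds RANK ligand and TRAIL, had 4547, 4476 and 5191 counts in IGROV1-Res, against 2387, 2648 and 2648 counts in IGROV1-Sen. Its groups were far apart, and it rose (log2FC 0.88, SE 0.08, adjusted p = 6.43e-05), the opposite sign to the membrane decoys. *TNFRSF11B* also lies on chromosome 8. *TNFRSF12A*, the receptor of TWEAK, rose (log2FC 1.06, adjusted p = 0.000843) and so did *RELT*, a receptor without a death domain (log2FC 0.77, adjusted p = 0.00123). *TNFRSF25*, the death-domain receptor DR3, fell (log2FC -1.28, adjusted p = 0.0207) at under 4 CPM in every library, a call that was lost in 6 of 18 alternatives, with adjusted p of up to 0.0885. *TNFRSF21*, a receptor of this list named after its values were seen, rose (log2FC 0.92, adjusted p = 0.00194). Its means were 286 CPM in IGROV1-Res and 151 CPM in IGROV1-Sen.

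Of the ligands, only 4 of 18 listed were counted, and *TNFSF10* and *FASLG*, which encode TRAIL and Fas ligand, were not among them and are not analysed here. *EDA*, which encodes ectodysplasin, rose (log2FC 1.10, adjusted p = 0.00018) and so did *TNFSF9*, the ligand of 4-1BB (log2FC 0.99, adjusted p = 0.00128). Of all tested genes, 17.4% rose. None of the 4 fell (against 18.3% of all tested genes), also at an unadjusted p under 0.05, in the likelihood ratio test and in DESeq2. *TNF* had 28, 84 and 64 counts in IGROV1-Res, against 38, 23 and 26 counts in IGROV1-Sen. Its groups overlapped through replicate 1 of both, and its log2FC of 0.99 did not pass the threshold (adjusted p = 0.0811). It did so without IGROV1-Res replicate 1 (1.31, adjusted p = 0.0128), without IGROV1-Sen replicate 1 (1.31, adjusted p = 0.0324) and in the likelihood ratio test (0.98, adjusted p = 0.0474).

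Of 21 adaptors and kinases of the receptor complexes, 3 rose (14.3%, against 17.4% of all tested genes) and 4 fell (19.0%, against 18.3%). The other 14 were not called, and the median was -0.01. When IGROV1-Sen replicate 1 was left out 6 rose, and when IGROV1-Res replicate 2 was left out 2 fell. *PEA15*, a death-effector-domain protein that binds FADD and caspase-8, rose (log2FC 0.78, adjusted p = 0.00751). *TRADD*, the adaptor of TNFR1, rose (log2FC 0.50, adjusted p = 0.00917, at 15.1 CPM in IGROV1-Res and 10.7 CPM in IGROV1-Sen), while *RIPK1*, the kinase it recruits, was at 0.18 (adjusted p = 0.308). *TAB1*, a partner of the kinase TAK1, fell (log2FC -0.62, adjusted p = 0.000543), and so did *FAIM*, an inhibitor of Fas-induced death (log2FC -0.82, adjusted p = 0.00829). Of the related death-effector-domain genes, *DEDD2* rose (log2FC 0.55, adjusted p = 0.0367, lost in 5 of 18 alternatives, up to 0.111) and *DEDD* fell (log2FC -0.36, adjusted p = 0.0127, and 0.0616 without IGROV1-Res replicate 2).

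A list of 14 genes held regulators of ubiquitin chains at the TNF receptor complex, and also the IkB kinase genes *IKBKB* and *CHUK*. Of the 14, 9 rose in IGROV1-Res (64.3%, against 17.4% of all tested genes) and none fell (against 18.3%). Their median log2FC was 0.38. The list was written with earlier results known, so nothing is read from these counts. With chromosome 8 left out, 8 of 12 rose. In the likelihood ratio test and in DESeq2, 9 of 14 rose and none fell, while 2 were lower at an unadjusted p under 0.05. A gene of the 14 was called lower with upper-quartile scaling and without IGROV1-Res replicate 1 (*CHUK*, an IkB kinase subunit) or without IGROV1-Sen replicate 1, alone or together with IGROV1-Res replicate 3 (*USP21*, a deubiquitinase), both genes named after their values were seen. *TNFAIP3*, which encodes the ubiquitin-editing enzyme A20, had 180, 199 and 183 counts in IGROV1-Res, against 74, 113 and 103 counts in IGROV1-Sen, a log2FC of 0.96 (SE 0.15, adjusted p = 0.000993). The deubiquitinase gene *CYLD* rose (log2FC 0.51, adjusted p = 0.00562) and *RBCK1*, a subunit of the linear ubiquitin ligase, rose (log2FC 0.42, adjusted p = 0.004). None of these 3 overlapped between the groups, which also holds for 47.8% of all tested genes.

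The other IAP genes and their antagonists did not differ past the threshold in any of 5 tested, with a median of 0.12. At an unadjusted p under 0.05, 1 was higher in edgeR's quasi-likelihood test and 1 in the likelihood ratio test, and none was in DESeq2. At the adjusted threshold, neither the likelihood ratio test nor DESeq2 called any. *XIAP*, the direct caspase inhibitor, was at 30.5 CPM in IGROV1-Res and 28.0 CPM in IGROV1-Sen, *BIRC5*, which encodes survivin, at 136 CPM in IGROV1-Res and 131 CPM in IGROV1-Sen, and *DIABLO*, the mitochondrial IAP antagonist, at 12.5 CPM in IGROV1-Res and 10.1 CPM in IGROV1-Sen. Their log2FC values were 0.12 (adjusted p = 0.335), 0.06 (adjusted p = 0.788) and 0.31 (adjusted p = 0.0822). *BIRC3* was the IAP gene with the largest absolute log2FC of those tested here.

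Of 17 genes of the effector caspases and the mitochondrial arm, 3 rose (17.6%, against 17.4% of all tested genes) and 2 fell (11.8%, against 18.3%). The median was 0.13. When IGROV1-Sen replicate 1 was left out 6 rose, and when IGROV1-Res replicate 1 was left out 5 rose. In DESeq2, and when any library other than IGROV1-Res replicate 3 was left out, 1 fell. *GSN*, the actin-severing gelsolin, a caspase substrate, rose (log2FC 1.11, adjusted p = 2.33e-05), and so did *BAK1*, a pore-forming protein of the outer mitochondrial membrane (log2FC 0.58, adjusted p = 0.00132), and *CYCS*, which encodes cytochrome c (log2FC 0.60, adjusted p = 0.00437). *PARP1*, a DNA repair enzyme cut by caspases, fell (log2FC -0.60, adjusted p = 0.00049). *BID*, which links caspase-8 to mitochondria, was at 0.47 (adjusted p = 0.069), and passed the threshold when IGROV1-Sen replicate 1 was left out, at 0.71 (adjusted p = 0.00226).

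Of 10 genes listed as NF-kB subunits and inhibitors, 1 rose and 3 fell, with a median of 0.10, and 3 rose in the likelihood ratio test and in DESeq2. Without IGROV1-Sen replicate 1, 4 rose, without IGROV1-Res replicate 1, 2 rose, and without IGROV1-Sen replicate 3, 1 fell. *NFKB2*, the precursor of the non-canonical subunit p52, rose (log2FC 0.55, adjusted p = 0.00252), and *NFKB1*, the precursor of p50, fell (log2FC -0.34, adjusted p = 0.0136). The IkB family genes *NFKBIA* and *NFKBIZ* fell with log2FC values of -0.52 (adjusted p = 0.0191) and -0.44 (adjusted p = 0.0147). Each of these 3 decreases was lost in 2 of 18 alternatives, with adjusted p of up to 0.0753.

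**Figure D4:**
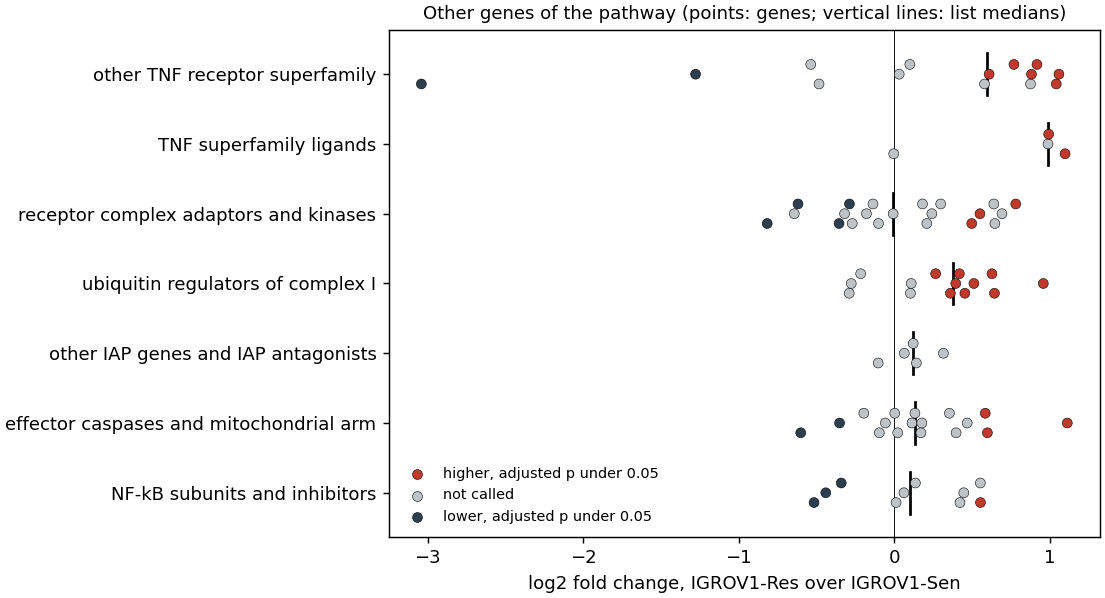
Log2 fold change of IGROV1-Res over IGROV1-Sen of the 85 tested genes of the 7 lists, 1 point per gene, red where higher and dark blue where lower at an adjusted p under 0.05, with vertical lines at list medians. Of the ubiquitin regulators, 9 of 14 genes were called higher, against 17.4% of all tested genes, and none was called lower, against 18.3%. *TNFRSF10C* at -3.04 lay farthest to the left.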

How the data were processed

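RNA from 3 IGROV1-Res and 3 IGROV1-Sen libraries was sequenced by the authors, who deposited raw read counts per Ensembl gene, left by a quality filter of unstated rule. The submitters' processing notes name hg18 and edgeR, and the aligner, the counting tool and the use of strand are not given in the sources used here. A second table deposited by the authors holds their own fold changes and p-values, none of which were used; only its symbols were. The genes of interest and the lists were chosen with earlier results of these data known. The fit used edgeR 4.0.16 in R 4.3.3 (filterByExpr with a minimum count of 10 and a minimum total of 15, TMM, glmQLFit and glmQLFTest with the group as the only term) and Benjamini-Hochberg adjustment over 13791 genes, with a threshold of 0.05. CPM use TMM-scaled library sizes, and SE is the size of log2FC divided by the root of the F statistic. Coordinates and exon lengths are from GENCODE 29 on GRCh38, matched by Ensembl identifier for 14611 of 14646 genes. Levels are compared between genes only per kb of exons. In each list and direction, the called genes were ranked by adjusted p and the first 3 named, as were the nearest counted neighbours and, whatever their values, *TNFRSF10C*, *TNFSF10*, *FASLG*, *TNF*, *CASP10*, *RIPK1*, *TRADD*, *XIAP*, *DIABLO*, *BIRC5* and *BID*; *ACTA2* was named for its overlap with *FAS*. Values of a few genes that this choice would name are left out. Patterns were compared among genes with a mean of at least 5 CPM. Promoter windows were taken from RefSeq, where 7 of the genes of interest had 15 windows. The alternatives were the likelihood ratio test, DESeq2 1.42.0, other normalizations and filters, a replicate block, leaving out libraries, other thresholds, and leaving out mitochondrial or chromosome 8 genes. The fit was tested on simulated data with known changes. The floor of 3 counts covers counting error only, while SD and SE also take in the spread between libraries.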

Additional observations from a re-analysis of the deposited data

How the results depend on the processing

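The log2 fold changes of *TNFRSF10D*, *BIRC3* and *FAS* kept their sign in every alternative that held the gene. Among the 9 genes, those called higher (2 as reported) numbered 1 at an adjusted p under 0.01, 1 at an absolute log2FC of 1 or more, 4 without both libraries of lowest mitochondrial share (IGROV1-Res replicate 3 and IGROV1-Sen replicate 1), where *CASP8* and *BIRC2* were added, 1 with IGROV1-Sen replicates 2 and 3 summed, 1 with chromosome 8 left out, which takes out *TNFRSF10B*, and 1 to 3 when each library was left out in turn. Those called lower (2 as reported) numbered 1 when 10 counts were asked of every library, which takes out *BIRC3*, and 1 with chromosome 8 left out. Of the list genes, those called higher (24) numbered 4 and those called lower (11) numbered 2 at an absolute log2FC of 1 or more, and 4 were lower at an adjusted p under 0.01. Those lower ranged from 6 to 11 when each library was left out, with 6 without IGROV1-Res replicate 2 or IGROV1-Sen replicate 3 and 7 without IGROV1-Sen replicate 2. Over all genes, 1373 were higher and 1584 lower at an adjusted p under 0.01, 620 and 811 at an absolute log2FC of 1 or more, and 1538 to 3023 were higher when each library was left out, the lowest without IGROV1-Sen replicate 3 and the next, 1572, without replicate 2. Samples of the same replicate number did not deviate together, with correlations of -0.50, 0.14 and -0.58, so the numbers were not taken as pairs. Libraries of other numbers did, with 0.68 for IGROV1-Res replicate 3 and IGROV1-Sen replicate 1, and 0.45 and 0.42 for IGROV1-Res replicate 1 with IGROV1-Sen replicates 2 and 3. With a replicate block, 1530 genes were higher and 1732 lower, list genes lower numbered 7, ubiquitin regulators higher numbered 5 in place of 9, and the genes of interest called were unchanged in number. Where no construction above shows it, the cause was not tested. Counts under 3 in a library limit *BIRC3* and *TNFRSF10C*.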
